A study of Mus musculus with 4 samples.

Results

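The strongest peaks of H3K23pr, propionylation of a lysine in the tail of histone H3, in mouse liver are described here: every called peak on chromosomes 1 to 19 whose summit was covered by 11 or more immunoprecipitated DNA fragments. The rule kept 348 of the 96304 peaks in the 2 deposited peak lists, of which 94517 lay on these chromosomes. In the WT list 153 of 53395 peaks (0.287%) qualified, and in the KO list 195 of 41122 (0.474%). These peaks were chosen by their summit count, called the pileup, so pileups are given as a description and no test rests on them.

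All libraries were prepared from liver of male C57BL/6 mice kept with food and water freely available. The group labelled WT carried RPN11 flox/flox alleles, and the group labelled KO had RPN11 removed in hepatocytes only. The driver of the deletion, the age and diet of the mice and the number of animals behind a library were not given in the sources used here. Each genotype had 1 library of chromatin immunoprecipitated (IP) with an anti-H3K23pr antibody and 1 input library of sonicated chromatin without antibody. Other liver cells in the KO group keep the gene, and a mark lost in hepatocytes cannot be told apart from a change in the share of hepatocytes. With 1 library per genotype, no difference below has a replicate check, no p-value is given, and intervals cover counting error only.

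Propionylation attaches a propionyl group, derived from propionyl-CoA, to a lysine side chain, and on histone tails it is found with acetylation at active genes. Propionyl-CoA arises in liver mainly from the breakdown of odd-chain fatty acids, cholesterol side chains and several amino acids, and propionyl-CoA carboxylase removes it. Psmd14 codes for RPN11, a proteasome lid protein that removes ubiquitin chains from substrates before they are degraded. Regions of tandem repeats, such as satellite arrays near centromeres and repeats near telomeres, are a known source of very high read pile-ups in ChIP-seq because reads from many copies are placed on the few copies present in the assembly.

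The WT and KO IP libraries held 13615838 and 15468265 fragments after duplicate filtering, with mean fragment sizes of 97 and 71 bp, and the inputs held 9385834 and 10000823. A pileup of 11 therefore equals 0.808 fragments per 1000000 IP fragments (FPM) in WT and 0.711 FPM in KO. At the threshold itself, 50 WT and 45 KO peaks had exactly 11 fragments, and 154 WT and 92 KO peaks had 10 and were left out. The caller's fold is the pileup plus 1 over the local background plus 1, so the background in fragments follows from each row. Its lowest common level was 0.692 in WT and 0.568 in KO, where a pileup of 4 was enough for a call.

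Most of these peaks were only just above the threshold, and a few were enormous. The median pileup was 13 in WT (range 11 to 12571) and 14 in KO (range 11 to 1954), or 0.955 and 0.905 FPM. The WT list held 27 peaks of more than 100 fragments and the KO list held 13. The median fold of all members was 3.86 in WT (range 1.10 to 8.97) and 5.20 in KO (range 1.73 to 49.1), against 3.52 and 3.83 over all peaks of each list. The peaks above 100 fragments had lower median folds, 1.84 in WT and 3.36 in KO.

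A local background more than 2 times the lowest common level was present at 122 of the 153 WT peaks (79.7%, exact binomial 95% interval 72.5 to 85.8%), against 4.26% of all WT peaks. In KO it was present at 136 of 195 (69.7%, 62.8 to 76.1%), against 1.09% of all KO peaks. Pileup and background both scale with local coverage and are not independent measures. In 90 of the 122 WT peaks and 104 of the 136 KO peaks the background equalled a whole number of input fragment ends to within 0.01 of an end, 1 end being worth 0.725 in WT and 0.773 in KO. At such peaks the background is a count taken from the input library.

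**Figure D1:**
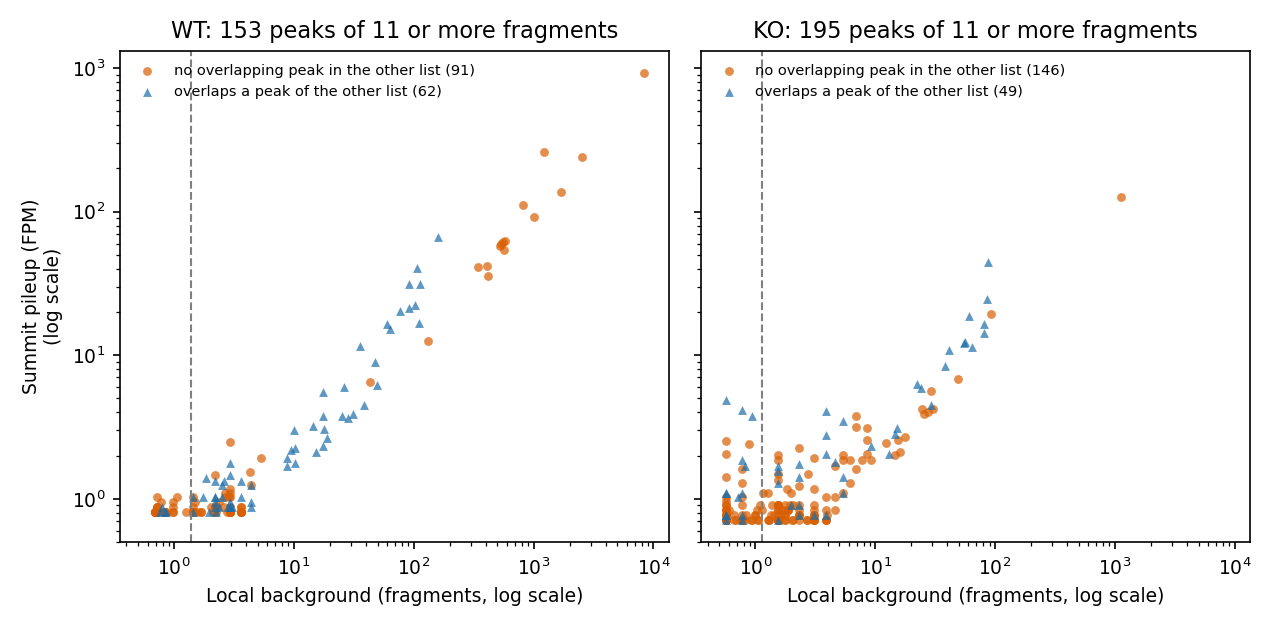
Summit pileup in FPM (vertical, log scale) against the local background in fragments (horizontal, log scale) for the 153 WT and 195 KO peaks; each point is a peak, triangles overlap a peak of the other list and circles do not. The dashed line marks 2 times the lowest common background. Peaks of high pileup lie at high background in both lists, and the highest WT points, up to 923 FPM, have no KO partner.

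Presence in both genotypes was more frequent among these peaks than in the lists as a whole. Of the WT peaks, 62 of 153 (40.5%, 32.7 to 48.7%) overlapped a KO peak by at least 1 bp, against 0.837% of all WT peaks. Of the KO peaks, 49 of 195 (25.1%, 19.2 to 31.8%) overlapped a WT peak, against 1.08% of all KO peaks. The share was 1.45% and 2.86% among peaks of 8 to 10 fragments. Sharing moved with background in WT: 4 of 31 low-background peaks were shared (12.9%), 27 of 75 at 2 to 10 times the lowest level (36.0%) and 31 of 47 above 10 times (66.0%). In KO the same classes gave 14 of 59 (23.7%), 18 of 96 (18.8%) and 17 of 40 (42.5%).

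Shared peaks were also wider, with a median of 276 bp against 164 bp for unshared peaks in WT and 389 against 136 bp in KO. Peaks narrower than 1.5 mean fragments made up 12 of 62 shared and 37 of 91 unshared WT peaks (19.4% and 40.7%), and 3 of 49 shared and 46 of 146 unshared KO peaks (6.12% and 31.5%). Over all peaks this share was 63.6% in WT and 68.8% in KO. A wider peak has more bases in which an overlap can fall, and the part of width in the sharing was not tested.

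The single tallest peak of each list had no overlapping peak in the other. Among peaks above 100 fragments, 12 of 27 in WT (44.4%) and 10 of 13 in KO (76.9%) were shared. Over all peaks these shares were 0.837% and 1.08%. The highest WT summit lay on chromosome 2 at 98666750 to 98667194 (mm10, as are all coordinates here), with 12571 fragments (923 FPM), on a background of 8368 and a fold of 1.5. No protein-coding gene lies within 1 Mb, the nearest being Lrrc4c, which encodes a synaptic adhesion protein, at 1035470 bp. Another WT summit, on chromosome 9 at 35305364 to 35305470 in the long noncoding RNA gene Gm33838, had 3291 fragments on a background of 2539 and a fold of 1.30. Neither peak had an overlapping KO peak.

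The first called stretch of chromosome 9 held the most WT members of any locus. Within 3000343 to 3025931, 25.6 kb, 12 WT peaks reached 485 to 3551 fragments on a median background of 559 fragments, with folds of 1.10 to 2.89. No KO peak of any height was called there. The nearest protein-coding gene, Alkbh8, a tRNA-modifying enzyme, begins more than 300 kb away. The files hold no repeat annotation, so the stretch is named by its position and coverage alone.

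The KO list had a single peak of comparable height. It lay in Chl1, a neural cell adhesion gene, on chromosome 6 at 103649154 to 103649237, with 1954 fragments (126 FPM) over only 84 bp. Its background was 1131 and its fold 1.73. No WT peak overlapped it, and the nearest WT summit was 115600 bp away. On chromosome 9 at 24542039 to 24542134, 14947 bp from Dpy19l2, a further KO summit of 300 fragments (fold 3.24) likewise had no WT partner. Absence from a list means only that no peak was called there, since the deposited files give no coverage outside peaks.

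The ends of chromosomes carried a recurrent group seen in both genotypes. On 12 of 19 chromosomes (1, 2, 3, 4, 7, 10, 12, 13, 14, 16, 18 and 19) the last called peak had 11 or more fragments in both lists and overlapped between them, with summits 0 to 268 bp apart. On chromosome 11 this held in KO only, with 31 fragments, and on the other 6 chromosomes (5, 6, 8, 9, 15 and 17) the last peak had 4 to 6 fragments in WT and 4 or 5 in KO. Chromosome ends were taken as the last called peak or annotated gene, since assembly lengths were not used here.

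The terminal peaks differed widely in height between chromosomes by more than 10 times in each list, and the 5 tallest ranked alike in both. Chromosome 14 was the highest, with 904 fragments in WT and 685 in KO (66.4 and 44.3 FPM) at 124801601, 124257 bp from Fgf14. Chromosome 7 followed with 552 and 384 (40.5 and 24.8 FPM), 17114 bp from Mrgprd, a sensory neuron receptor gene. Chromosome 4 was the lowest of the 12, with 29 and 24.

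Between these lay chromosome 18 (429 in WT, 291 in KO), chromosome 12 (427 and 256), chromosome 16 (305 and 221), chromosome 1 (291 and 168), chromosome 3 (275 and 192), chromosome 2 (225 and 187), chromosome 13 (207 and 130), chromosome 19 (159 and 97) and chromosome 10 (84 and 70). In every one of the 12 the raw count was higher in WT. The KO library held more fragments, but their mean size was smaller, 71 against 97 bp. Scaled by fragment number and mean fragment size, the KO to WT ratio was 0.999 on chromosome 2, 0.995 on chromosome 4 and 1.00 on chromosome 10. On the rest of the 12 it was 0.694 (chromosome 1) to 0.911 (chromosome 14). Folds were moderate, from 1.69 on chromosome 10 to 5.66 on chromosome 14 in WT and from 2.34 to 9.82, on chromosome 4, in KO. The KO value on chromosome 4 stood on a background of 1.55 fragments, against 15.2 in WT.

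**Figure D2:**
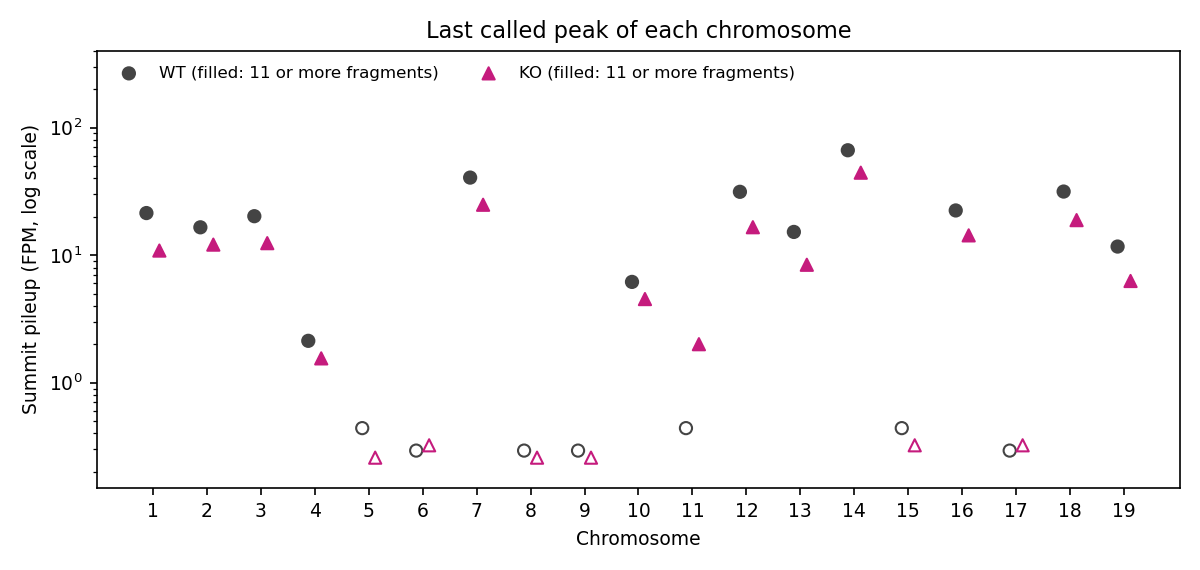
Summit pileup in FPM (log scale) of the last called peak on each of chromosomes 1 to 19, circles for WT and triangles for KO, filled where the pileup was 11 or more. On 12 chromosomes both symbols are filled, with the WT value above the KO value in each, and on chromosome 11 only the KO symbol is.

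Measured over all members, 13 of 153 WT peaks (8.5%, interval 4.60 to 14.1%) had their summit within 200 kb of the distal end, against 0.159% of all WT peaks. In KO it was 20 of 195 (10.3%, 6.38 to 15.4%), against 0.219%. Within 1 Mb of either the distal end or the first called peak lay 32 WT peaks (20.9%, 14.8 to 28.2%) and 44 KO peaks (22.6%, 16.9 to 29.1%), against 1.37% and 1.44%. Among peaks above 100 fragments, 23 of 27 in WT and 11 of 13 in KO were at such an end. Of the 23 in WT, 12 were the peaks of the single chromosome 9 stretch above, which are not independent. Counted as 10 kb loci, the share at an end was 14.3% in WT (8.69 to 21.6%) and 19.9% in KO (13.5 to 27.6%). Among peaks of 8 to 10 fragments the share was 1.59% in WT and 1.47% in KO.

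Clusters of strong peaks differed between the genotypes. Merging peaks closer than 10 kb gave 217 loci, of which 81 held WT peaks only, 91 KO peaks only and 45 both. Merging within 100 kb gave 192 loci, and 10 of these held 5 or more members, 110 peaks in all. The genes named in the next paragraphs as lying in such clusters were picked after their values were seen.

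The cluster with the most members, 35, covered 267 kb of chromosome 1, from 85075873 to 85343054, over the predicted genes Gm38510 and Gm7592 and the transcripts A530032D15Rik and C130026I21Rik. It held 8 WT members of 11 to 17 fragments and 27 KO members of 11 to 20. Counting peaks of any height, the WT list had 9 there and the KO list 85. Of the 8 WT members 3 overlapped a KO peak, while none of the 27 KO members overlapped a WT peak.

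A neighbouring stretch of 148 kb, 85479135 to 85627425, covers Sp110 and Sp140, which encode nuclear body proteins of the interferon response, and part of Gm7592. It held 15 KO members of 11 to 19 fragments and no WT member, and 53 KO against 3 WT peaks of any height. Gm7592 spans both stretches in the annotation. Chromosome 1 had the most members of any chromosome in both lists, 22 in WT and 56 in KO. Of these the first stretch held 8 in WT and 27 in KO, and the second held 15, all in KO.

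Of the other clusters plotted by locus, most held more KO than WT members, as did the lists as a whole (153 WT and 195 KO). Such clusters included 181917659 to 182013187 on chromosome 2 (2 WT and 5 KO), 124256384 to 124257834 on chromosome 9 (1 and 4) and 13552631 to 13655216 on chromosome 17 (1 and 4). More WT than KO members lay at the start of chromosome 9, given above, and at 29102367 to 29107956 on chromosome 17 (4 and 2). On chromosome 8, 20415083 to 20703950 also held more WT members, 8 of 11 to 14 fragments against 4 KO members of 11 to 12, but 13 WT and 37 KO peaks of any height. On chromosome 10, 3109458 to 3117132 held 4 members in each list, of 36 to 51 fragments in WT and 35 to 58 in KO. The median background there was 22.1 fragments in WT and 1.63 in KO, so the folds were 1.74 to 2.30 in WT and 9.04 to 30.5 in KO. The part of library differences in these clusters was not tested.

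**Figure D3:**
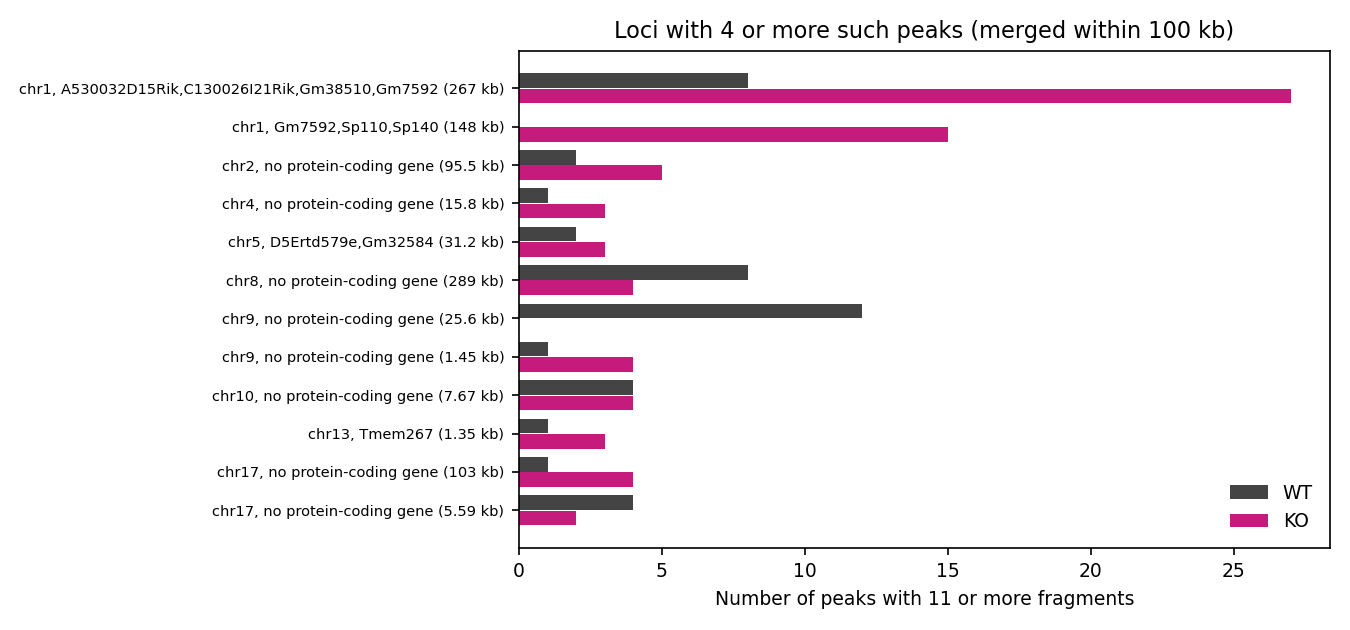
Number of peaks with 11 or more fragments in WT (grey) and KO (magenta) at the loci of 4 or more such peaks after merging within 100 kb, labelled by chromosome, overlapping protein-coding genes and span. The chromosome 1 locus over Gm38510 has 8 WT and 27 KO peaks, that over Sp110 and Sp140 has 0 and 15, and the start of chromosome 9 has 12 and 0.

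The pile-up class, defined as a background over 10 times the lowest common level or at least 3 members of a list within 10 kb, took in 54 WT peaks (35.3%) and 91 KO peaks (46.7%). In WT it was made mostly by background (47 peaks), with a median pileup of 106 and a median fold of 2.51. In KO it was made mostly by crowding (59 peaks, against 40 by background), with a median pileup of 25 and a median fold of 4.43. Outside the class 99 WT and 104 KO peaks remained, with median pileups of 12 in both lists and maxima of 34 and 76.

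At 45 pairs of overlapping peaks, made of 44 WT and 42 KO peaks, the pileup was 11 or more in both genotypes. The KO to WT ratio of pileups in FPM had a median of 0.734 (range 0.335 to 1.91). Both ends of the range came from a peak that overlapped more than 1 peak of the other list. The WT peak of 84 fragments on chromosome 10 gave 0.335 against a KO peak of 32 and 0.734 against a KO peak of 70. A KO peak of 26 in Mogat1 gave 1.91 against a WT peak of 12 and 0.763 against a WT peak of 30. The ratio was below 1 in 35 pairs, against 63.6% of all 451 overlapping pairs. Its exact 95% interval was entirely below 1 in 15 pairs, against 3.99% of all pairs, and entirely above 1 in 0 pairs, against 0.0%. These intervals are scaled by fragment number only, and taller pairs have narrower intervals. Summits lay within 30 bp of each other in 26 pairs, against 29.0% of all pairs.

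The ratio depended on the scaling. Multiplying fragment number by mean fragment size, to allow for the 97 bp WT and 71 bp KO fragments, moved the median to 1.00. On that scale 23 pairs had a ratio above 1 and 22 had a ratio below 1. The intervals given here were not recomputed on that scale. Fragment size and genotype cannot be told apart with these libraries. The pairs at the distal chromosome ends were the lower ones: 13 pairs had a median of 0.612 (range 0.335 to 0.734), with 11 intervals below 1, and 0.837 after size scaling. These 13 pairs were made of 12 WT peaks, because the chromosome 10 WT peak was paired with 2 KO peaks. Its pairing with the lesser KO peak gave the 0.335 and 1 of the 11 intervals, and the next lowest ratio was 0.508 on chromosome 1. The 32 pairs elsewhere had a median of 0.819 (range 0.513 to 1.91), with 4 intervals below 1, and 1.12 after size scaling.

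The fold over background ran the other way, being higher in KO in 36 of the 45 pairs, against 68.7% of all pairs. The background, which is the denominator of the fold, differed too. Corrected for input depth and fragment size, the WT background exceeded the KO background by a median of 1.85 times, and by more than 2 times in 22 of 45 pairs, against 12.9% of all pairs. At the distal ends that median was 1.32, and elsewhere it was 2.94, with more than 2 times in 20 of 32 pairs and a maximum of 25.5. In 13 of the 45 pairs the KO background was 0.568 to 0.933 fragments, at or near its lowest common level, which limits how large the ratio of backgrounds and the KO fold can be read there.

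**Figure D4:**
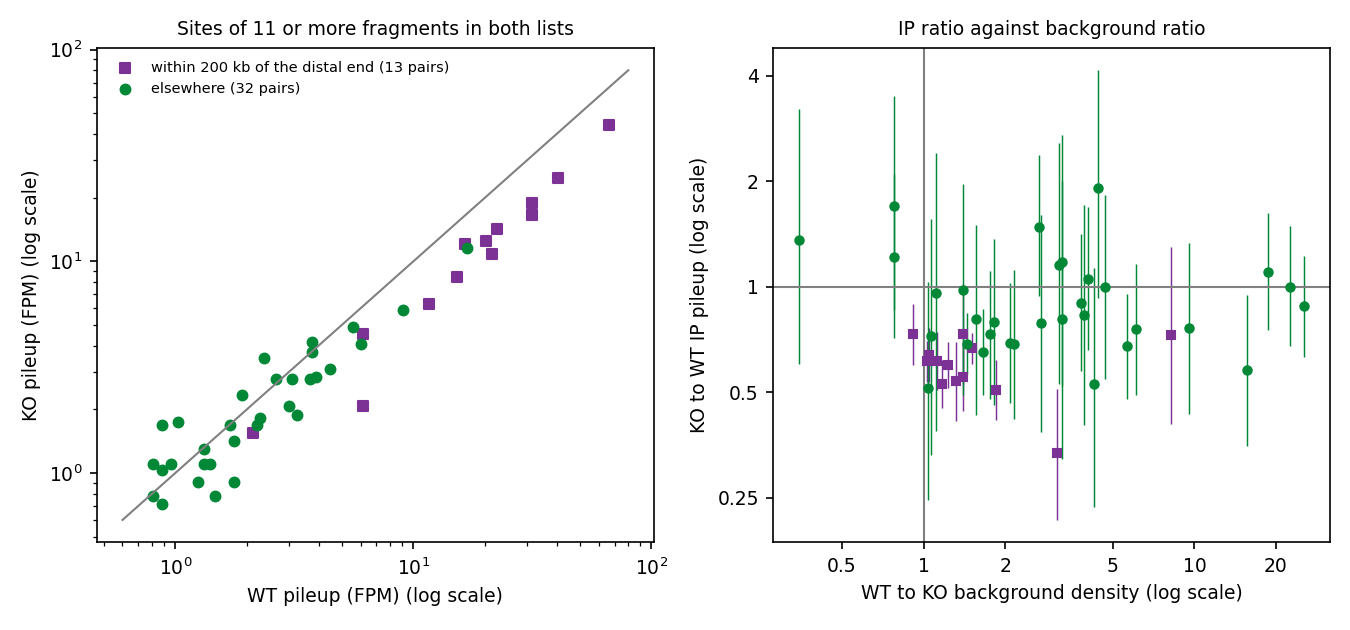
Left, KO against WT pileup in FPM (both log scales) at the 45 pairs with 11 or more fragments in both lists, with the line of equality; right, KO to WT IP ratio with its exact 95% interval against the WT to KO ratio of background density (both log scales). The 13 pairs at distal ends (squares) lie below equality, with ratios of 0.335 to 0.734, while the 32 others (circles) lie on both sides and reach background ratios of 25.5. IP ratios are scaled by fragment number only. The chromosome 10 WT peak is paired with 2 KO peaks, which gives the lowest and the highest ratio of the 13.

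Of these pairs, 15 lay in protein-coding genes, and several had nearly equal IP counts with unequal inputs. D5Ertd579e, a gene of uncharacterised function on chromosome 5, had 76 fragments in WT at 36630423 to 36630749 and 76 in KO at 36630373 to 36630771, a scaled ratio of 0.880 (0.632 to 1.23). The WT fold was 4.18 and the KO fold, the highest of these KO peaks, was 49.1. The WT background there equalled 24 input fragment ends, and the KO background was at its lowest common level. A further pair in the same gene, at the other end of this locus of 31.2 kb, had 51 and 64 fragments with folds of 2.82 and 36.7.

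Mogat1 encodes monoacylglycerol acyltransferase, an enzyme of triglyceride synthesis. A KO peak on chromosome 1 at 78573760 to 78574559 reached 26 fragments with a fold of 14.8 and covered 2 WT peaks of 30 and 12 fragments with folds of 2.97 and 2.43. The ratio against the taller WT peak was 0.763 (0.433 to 1.33), an interval that includes equality, and 1.04 when scaled also by fragment size. The WT backgrounds equalled 13 and 6 input ends and the KO background 1.07.

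Of the 15 pairs in genes, the KO fold was the higher in 12, against 68.7% of all overlapping pairs, with IP ratios on either side of 1. Vps45, a vesicle fusion regulator on chromosome 3, had 82 fragments in WT and 63 in KO, with folds of 3.06 and 13.2 and a ratio of 0.676 (0.479 to 0.951). Ppp1r9a, which encodes the actin-binding protein neurabin, had 32 and 54 fragments, with folds of 1.79 and 8.58 and a ratio of 1.49 (0.942 to 2.38). Ranbp3l had 23 and 26, with folds of 2.47 and 10.6 and a ratio of 0.995 (0.546 to 1.83). These ratios and intervals are scaled by fragment number only. Scaled also by fragment size, the ratios were 0.924 in Vps45, 2.03 in Ppp1r9a and 1.36 in Ranbp3l, without intervals. At all 3 genes the count of input ends behind the background was higher in WT, 36 against 5, 24 against 7 and 12 against 2.

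Smaller pairs lay in Pde5a, a cGMP phosphodiesterase (18 fragments in WT and 17 in KO), in Nxpe4 (24 and 22), in Atp6v0a2, a subunit of the vacuolar proton pump (17 and 14), and in Dnah14, an axonemal dynein chain (12 and 11). In each of them the interval of the ratio included 1. Uxs1, which makes UDP-xylose, had 24 and 14 (ratio 0.513, 0.246 to 1.03), and Col4a4, a basement membrane collagen chain, had 11 and 17 (1.36, 0.601 to 3.21). The KO fold was the lower in Uxs1 (6.41 in WT and 4.52 in KO), Col4a4 (3.69 and 2.81) and Atp6v0a2 (5.09 and 5.04). Tmem267 on chromosome 13 had 228 and 178, a ratio of 0.687 (0.562 to 0.840), on backgrounds of 154 and 83 input ends. Its ratio was 0.939 when scaled also by fragment size, and the intervals in this paragraph are by fragment number only.

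A low background in both genotypes was found at a single pair. It lay on chromosome 4, the WT peak at 101313694 to 101314191 and the KO peak at 101313684 to 101314015, 48821 bp and 48503 bp from Jak1, the cytokine receptor kinase gene. The pileups were 11 and 12 and the folds 6.82 and 8.29, a ratio of 0.960 (0.388 to 2.40). Their summits were 318 bp apart.

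In both lists the interval of the share of members inside genes contained the share over all peaks. A protein-coding gene was overlapped by 55 WT peaks (35.9%, 28.4 to 44.1%) and 97 KO peaks (49.7%, 42.5 to 57.0%), against 44.0% of all WT peaks and 44.0% of all KO peaks. The WT interval ends just above that background and the KO interval contains it. Counted as 10 kb loci, the shares were 38.9% in WT (30.3 to 48.0%) and 43.4% in KO (34.9 to 52.1%). Without the cluster with the most members the KO share of peaks was 44.6%. No member fell in any of the RefSeq promoter windows, from 250 bases before to 50 after a gene start, against 0.313% of all WT and 0.192% of all KO peaks. A count of 0 allows up to 1.96% in WT and 1.54% in KO, which includes both background shares. No member overlapped a miRNA hairpin.

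The median distance from a member to the nearest RefSeq start of a protein-coding gene came to 48177 bp for the WT list and 27742 bp for the KO list. Over all peaks it was 75427 and 87260 bp, for peaks of 8 to 10 fragments 44130 and 43197 bp, and for peaks of exactly 10 fragments 38766 and 24235 bp. WT members thus lay farther from starts than both of these lower classes. KO members lay nearer than peaks of 8 to 10 fragments but farther than peaks of exactly 10. These medians were not recomputed by locus or without the chromosome 1 clusters. The members touched 50 protein-coding genes in WT and 57 in KO, 18 of them in both.

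Few genes on the lists tied to the study's subject were touched, 1 of 116 in WT and 2 of 116 in KO, counts too small to set apart from the background. Within 2 kb of a member lay 0.281% of all 20661 protein-coding genes in WT and 0.295% in KO. Of 30 genes of triglyceride and fatty acid metabolism, Mogat1 alone was touched, in both genotypes. Of 12 genes of propionyl-CoA metabolism, none was touched in WT and Pcca alone in KO. None of the 24 hepatocyte genes, 18 genes of other liver cells or 32 proteasome genes was touched, so these peaks check neither the tissue nor the deletion of Psmd14, which is among the last list.

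Pcca encodes the alpha subunit of propionyl-CoA carboxylase. Its KO peak, on chromosome 14 at 122568976 to 122569053, had 49 fragments (3.17 FPM) on a background of 6.96 fragments, a fold of 6.28. That background is over 10 times the lowest common KO level of 0.568, so the Pcca peak belongs to the pile-up class. The peak was 78 bp wide, close to the mean fragment size of 71 bp, and lay 34691 bp from the nearest protein-coding start. No WT peak overlapped it, and the nearest WT summit was 2197 bp away.

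Members inside genes on low background, where the input was not raised, were close to the threshold in WT. Zranb3, a DNA annealing helicase gene, had 14 fragments and a fold of 8.69 on chromosome 1 at 128065208 to 128065719. The UDP-glucuronosyltransferase cluster, at a position shared by Ugt1a8, Ugt1a9 and Ugt1a10, had 13 with a fold of 7.89 on chromosome 1 at 88090508 to 88090684. Usp37, a deubiquitylase gene, had 11 with a fold of 7.09. Neither these nor the peaks in Tmem241 (14 fragments), Arhgap32 and Wdr92 (12 each) and Myrip, Nsmce2 and Arl5b (11 each) overlapped a KO peak. The peak in Mrtfa, a coactivator of serum response factor, had 12 fragments and overlapped 2 KO peaks of 5 each.

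In KO the corresponding peaks, apart from those in D5Ertd579e, Mogat1 and Pde5a already given, were similarly low. Muc3, a mucin gene, had 16 fragments and a fold of 10.8 on chromosome 5 at 137152238 to 137152523. Dock2, a Rac activator of white blood cells, had 14 with a fold of 9.57, and a separate WT member of 11 fragments lay in the same gene. Fbxl17, an F-box gene, had 13 with a fold of 8.93. No WT peak overlapped any of these 3.

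Among the remaining KO peaks on low background were those in 2 genes, Nr1h4 and Abcb4, picked here after their values were seen. Nr1h4 encodes the bile acid receptor FXR and had 12 fragments and a fold of 8.29 on chromosome 10 at 89511621 to 89511746, with no overlapping WT peak. Abcb4 encodes the canalicular phospholipid transporter and had 11 fragments and a fold of 7.65 on chromosome 5 at 8944770 to 8945138, over a WT peak of 5 fragments whose summit was 13 bp away. Both counts are at or just above the threshold of 11.

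The most enriched members by fold were not those with the most fragments. In WT the highest fold, 8.97, belonged to a peak of 34 fragments on chromosome 6 at 147236663 to 147236964, 15285 bp from Pthlh, the gene of a parathyroid hormone related protein, with no KO overlap. In KO the folds above 20 outside genes belonged to 2 peaks of the chromosome 10 cluster, of 58 and 37 fragments (30.5 and 20.2), a peak on chromosome 17 at 13589762 to 13591585 with 39 fragments (25.5) and a peak on chromosome 2 at 3964497 to 3964609 with 32 (21.0), 53101 bp from Frmd4a. Of these sites, only the chromosome 10 peak of 58 fragments overlapped a WT peak.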

How the data were processed

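ChIP-seq peak lists for H3K23pr were used from 1 IP library per genotype, each called against its own input. Per the submitters' processing notes, cutadapt 1.9.3, Bowtie2 2.2.4 and the mm10 build were used. Per the file headers, peaks were called with MACS 2.1.1.20160309 in paired-end mode at p 0.001, with no more than 2 identical fragments kept. The deposited values were the pileup, a coverage signal in unscaled IP fragments at the summit, the fold enrichment ratio over background, and −log10 of the p- and q-value. Replicates were not pooled by the authors as far as the labels say.

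From these, pileups were divided by the IP fragments that passed the duplicate filter, per the file headers. The background was derived as the pileup plus 1, over the fold, minus 1. Overlap meant at least 1 bp. Shares have exact Clopper-Pearson 95% intervals, and ratios have exact binomial intervals on both fragment counts. Gene positions, promoter windows (32851) and miRNA hairpins (1005) came from RefSeq tables of the GRCm38 assembly, the mm10 coordinates. No genome sequence or repeat annotation was used here, so no peak sequence is printed. Genes were named by rule: the 10 highest members per list by pileup and by fold, genes with 11 or more fragments in both lists, the 10 tallest low-background members in genes per list, and members touching a listed gene. One gene that the rule names is not reported here. Members, lists and rules were chosen with earlier results of these data known. Python 3.11.15, numpy 2.4.6, pandas 2.3.3, scipy 1.17.1 and matplotlib 3.10.9 were used. The overlap and interval code was tested on simulated data. Alternatives for thresholds, overlap, scaling and merging were tried.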

Additional observations from a re-analysis of the deposited data

Results flagged for a closer look

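Peaks of 11 or more fragments were also present on the sex chromosomes, which the comparisons above do not use. The WT list had 3 on chromosome X (42 to 167 fragments) and 10 on chromosome Y (13 to 72 fragments). The KO list had 9 on chromosome X (11 to 106) and 18 on chromosome Y (12 to 88).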

How the results depend on the processing

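Of 55 alternative values, 37 kept their direction and size, 15 moved and 3 reversed. The 3 reversals all concern the KO to WT ratio, whose median of 0.734 became 1.00 when scaled also by fragment size, 1.12 with that scaling and without the distal ends, and 1.64 as fold over background. A pileup of 16 or more left 61 WT and 88 KO peaks, of which 63.9% and 43.2% were shared and 100% and 80.7% had raised background. With a reciprocal overlap of 50% the shared percentages were 23.5% in WT and 17.4% in KO. Among WT peaks, 12.9% were shared on low background only and 28.8% when the partner also had 11 fragments. By 10 kb loci, 33.8% of KO loci were shared and 14.3% of WT loci were at chromosome ends. Within 200 kb, 16.4% of KO peaks were at ends. Background over 5 times the lowest was present at 40.5% of WT and 36.9% of KO peaks. The cause of these shifts was not tested. Alternatives built on the cluster with the most members and the distal ends were added after seeing the data. No paired analysis was possible because each genotype had 1 IP library. Depth limits the smaller peaks most, since 11 fragments sit on the threshold and a site missing from a list may have fallen short of a call.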
